A study of Homo sapiens with 2 samples.

Results

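The HOXC cluster is a row of 9 homeobox genes on the long arm of chromosome 12: HOXC13, HOXC12, HOXC11, HOXC10, HOXC9, HOXC8, HOXC6, HOXC5 and HOXC4 in the order of their transcription start sites (TSSs). All 9 are read from the plus strand, so HOXC13 lies first and HOXC4 last in genome order. They are 9 of 64440 annotated genes, of which 20162 are protein-coding. The genes were taken by name, and every ATAC-seq peak within 3 kb of a member TSS, or lying between the outermost ends of the genes (chr12:54332615-54449814, hg19, 117.2 kb, called the span here), was collected. This gave 64 of 114060 DMSO peaks and 68 of 161184 MAK683 peaks. Of these, 63 and 64 overlapped the span itself.

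Chromatin accessibility was measured in G401, a cell line of a kidney rhabdoid tumor that lacks the SWI/SNF subunit SMARCB1. One culture received the solvent DMSO and the other received MAK683 at 3 µM, an inhibitor of Polycomb repressive complex 2 (PRC2) that acts through its EED subunit, both for 3 days in a serum-containing medium with 2-mercaptoethanol. There was 1 library per group, so no test was possible, and each difference is one between these libraries. In ATAC-seq the Tn5 transposase cuts open chromatin, and tags (sequenced read ends) pile up where it cuts.

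HOX genes encode transcription factors that give cells their position along the body axis. Genes at the HOXC4 end act in anterior segments and those at the HOXC13 end in posterior ones, and kidney and other mesoderm of the trunk keep part of this code. HOX proteins bind DNA together with PBX and MEIS partners. The clusters are rich in CG dinucleotides and are a classical target of PRC2, which methylates histone H3 lysine 27 and keeps unused HOX genes silent. The SWI/SNF complex, which lacks SMARCB1 here, opposes Polycomb repression.

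Height below is the number of tags over the summit of a peak per 1000000 tags kept by the peak caller (RPM). Kept tags were 16598348 for DMSO and 18265284 for MAK683, so that 1 tag was worth 0.0602 and 0.0547 RPM. HOXC peaks held 7 to 38 tags. Heights are given with 95% exact Clopper-Pearson intervals and log2 ratios of MAK683 over DMSO height with 95% Poisson intervals. All intervals cover counting error only. Of markers for this line, SMARCB1 had no promoter peak in either library, VIM had one of 44 DMSO and 41 MAK683 tags, and FN1 one of 12 and 26. Of markers of cells that the culture should lack, PTPRC, CD3E and ALB had none, while CDH1 and EPCAM had 18 and 12 tags in DMSO and 17 and 11 in MAK683.

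The sequences of 5 summits on which the results turn are shown first. They are 300 bases of the plus strand of GRCh37 around the summit, and capitals mark CG dinucleotides, in which CpG islands and many Polycomb target promoters are rich. The first is the tallest HOXC peak of the DMSO library, between HOXC13 and HOXC12. The others are the summit between HOXC9 and HOXC8 in the longest DMSO peak, the summit upstream of HOXC5, the tallest HOXC peak of the MAK683 library and a HOXC4 intron summit among the 3 largest falls.
Between HOXC13 and HOXC12, chr12:54342782-54343081: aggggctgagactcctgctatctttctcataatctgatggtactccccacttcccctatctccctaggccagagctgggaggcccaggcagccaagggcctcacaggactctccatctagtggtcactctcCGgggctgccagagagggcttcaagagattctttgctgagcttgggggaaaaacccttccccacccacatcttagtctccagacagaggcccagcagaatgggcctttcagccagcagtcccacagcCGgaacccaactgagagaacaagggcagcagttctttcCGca
Between HOXC9 and HOXC8, chr12:54399398-54399697: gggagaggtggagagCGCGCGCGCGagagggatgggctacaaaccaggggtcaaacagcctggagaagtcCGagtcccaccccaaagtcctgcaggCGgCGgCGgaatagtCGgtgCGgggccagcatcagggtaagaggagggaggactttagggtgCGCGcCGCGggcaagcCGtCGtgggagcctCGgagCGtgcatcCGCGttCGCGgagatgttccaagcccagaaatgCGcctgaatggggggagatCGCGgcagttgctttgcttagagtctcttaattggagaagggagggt
Upstream of HOXC5, chr12:54426025-54426324: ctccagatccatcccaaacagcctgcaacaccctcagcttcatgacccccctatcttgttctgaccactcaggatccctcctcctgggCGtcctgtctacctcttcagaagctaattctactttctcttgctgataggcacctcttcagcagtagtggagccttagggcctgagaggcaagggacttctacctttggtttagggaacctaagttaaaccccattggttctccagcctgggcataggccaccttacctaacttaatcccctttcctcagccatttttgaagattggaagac
Tallest in MAK683, chr12:54411708-54412007: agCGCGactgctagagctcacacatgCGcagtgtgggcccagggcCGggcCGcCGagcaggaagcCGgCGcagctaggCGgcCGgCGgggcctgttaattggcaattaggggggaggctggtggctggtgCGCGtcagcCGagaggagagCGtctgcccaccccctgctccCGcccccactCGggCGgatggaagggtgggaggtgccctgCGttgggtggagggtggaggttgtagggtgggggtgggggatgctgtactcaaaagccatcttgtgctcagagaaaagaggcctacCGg
HOXC4 intron, chr12:54432354-54432653: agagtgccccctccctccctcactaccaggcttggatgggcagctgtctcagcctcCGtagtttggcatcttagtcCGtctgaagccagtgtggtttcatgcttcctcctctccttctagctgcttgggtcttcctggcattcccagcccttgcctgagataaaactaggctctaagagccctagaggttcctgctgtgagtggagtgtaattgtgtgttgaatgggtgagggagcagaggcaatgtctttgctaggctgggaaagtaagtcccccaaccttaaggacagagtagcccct

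These summits were unlike in composition. The summit between HOXC9 and HOXC8 held 26 CG dinucleotides in 300 bases and the tallest MAK683 summit held 20. The tallest DMSO summit held 3, the one upstream of HOXC5 held 1 and the HOXC4 intron held 2. High peaks therefore stood both on CG-rich and on CG-poor sequence. Over the whole span, 25 of 63 DMSO summits (39.7%) had at least 10 CG dinucleotides in the 300 bases, against 22.7% of all DMSO summits of the genome. In the MAK683 library it was 21 of 64 (32.8%) against 16.7%. The median per HOXC summit was 8 in DMSO and 6 in MAK683, and the median over all summits was 4 in each library. The 29 DMSO peaks that no MAK683 peak overlapped had a median of 7, and the 34 that one did overlap had 8.5.

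Short motifs were searched on both strands of the same 300-base windows, and none was common in the cluster. The sequence TGATTNAT, the composite site of HOX with PBX, was in 1 DMSO summit window of the span (1.59%) and in 0 MAK683 windows, against 2.65% and 2.92% of all windows. That match lay at chr12:54419872-54419879, in an intron of HOXC6 and HOXC4, in a DMSO peak of 13 tags that no MAK683 peak overlapped. The core of the CTCF site was in 1 window of each library, against 5.90% and 4.49% of all. The AP-1 site TGANTCA was in 3 windows of each, against 8.08% and 8.66%. No match of the 3 motifs overlapped another, and a match or its absence says nothing about binding.

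In DMSO, peaks covered most of the cluster, and in MAK683 they covered much less of it. DMSO peaks covered 82.2 kb of the span (70.1%) and MAK683 peaks 49.0 kb (41.8%), a ratio of 0.597. The number of peaks was nearly the same, 63 and 64, with a ratio of 1.02 and a counting interval of 0.706 to 1.46. This near-equal count rests on the weaker peaks: with a −log10 q-value of at least 5 there were 54 in DMSO and 36 in MAK683. Across the genome, without that cutoff, the MAK683 library listed more peaks than the DMSO library. No genome-wide count with the cutoff is given. In a bulk culture, fewer cells with an open site and less opening per cell cannot be told apart.

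The peaks of the MAK683 library were shorter and lower. Median peak length was 788 bp in DMSO and 433.5 bp in MAK683, and the longest HOXC peaks were 7368 and 4890 bp. Median height was 0.843 RPM in DMSO and 0.602 RPM in MAK683. Peaks of at least 1 RPM numbered 24 in DMSO and 9 in MAK683. This drop was not particular to HOXC. The same counts were 18 and 12 in HOXA, 14 and 1 in HOXB and 6 and 5 in HOXD. In the 500 kb flanks they were 24 and 14 below the span and 38 and 20 above it. No genome-wide values of these measures are given. Of the 63 DMSO peaks, 18 were overlapped by at least 2 MAK683 peaks, and the longest, between HOXC9 and HOXC8, by 6. Both libraries together covered 46.3 kb, DMSO alone 35.9 kb and MAK683 alone 2.75 kb. Of the bases that DMSO covered alone, 25.2 kb lay in DMSO peaks that a MAK683 peak also touched, and 10.7 kb in DMSO peaks that none touched. Most of the difference in coverage was thus within peaks found in both libraries.

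**Figure D1:**
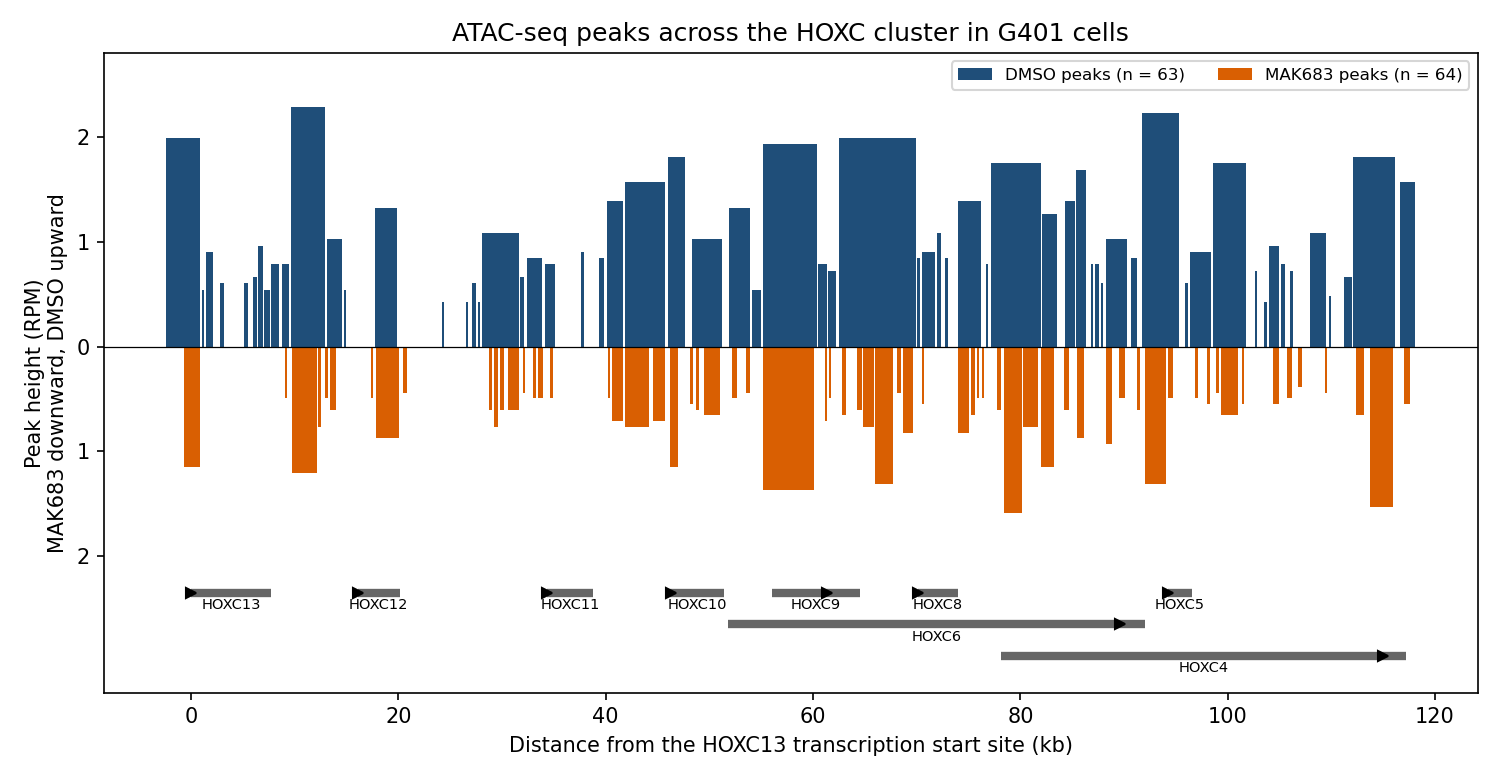
Peaks of the HOXC cluster by distance from the HOXC13 TSS (kb, x axis), with DMSO peaks drawn upward and MAK683 peaks downward. Each bar spans 1 peak and is as tall as its summit in RPM, and grey lines are genes with an arrow at the TSS used. The 63 DMSO peaks cover 82.2 kb of the span and the 64 MAK683 peaks 49.0 kb, with an 8.21 kb stretch over HOXC13 in which MAK683 lists no peak.

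The span was among the most densely covered stretches of the genome in both libraries. Of 26388 windows of the same length that do not touch it, the median was covered to 0.249% in DMSO and 1.38% in MAK683. None was covered as much as the HOXC span in DMSO, where the highest reached 66.4%. In MAK683, 7 windows were covered at least as much. A ratio as low as that of the span was not rare. Of 729 windows with at least 20% coverage in DMSO, 219 had a ratio at or below 0.597, and their median ratio was 0.678.

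Every HOXC gene had a peak within 3 kb of its TSS in both libraries, 9 of 9, against 70.9% of all protein-coding genes. The height of each promoter was lower in MAK683 than in DMSO, 9 of 9, against 78.4% of the 16247 protein-coding promoters with a peak. Where 1 library listed no promoter peak, a floor of 0.361 RPM stood in for its height. This applied to 372 of these promoters with a peak in DMSO alone and 1587 with one in MAK683 alone, but to no HOXC gene. The median log2 change of the 9 was −0.65, and the median over all of these promoters was −0.42. Relative to that shift, 8 of the 9 were lower and HOXC4 was higher, by 0.18. None was at least 2-fold lower, against 5.75% of all promoters and 7.39% of those in the same range of DMSO heights (1.08 to 2.23 RPM), whose median was −0.47. None at least doubled, against 3.37% of all. These counts rest on taking the tallest peak that reaches the 3 kb window. Within 1 kb HOXC9 (−1.44) and HOXC8 (−1.28) were at least 2-fold lower, and with summits inside 3 kb HOXC12 was (−1.14) and HOXC9 was higher (0.81). In each of these, the tallest overlapping peak of 1 library was left out by the window, so unlike peaks were compared. The 9 values are not independent, since HOXC6 and HOXC5 share their tallest peak in both libraries and HOXC9 and HOXC8 share theirs in DMSO.

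**Figure D2:**
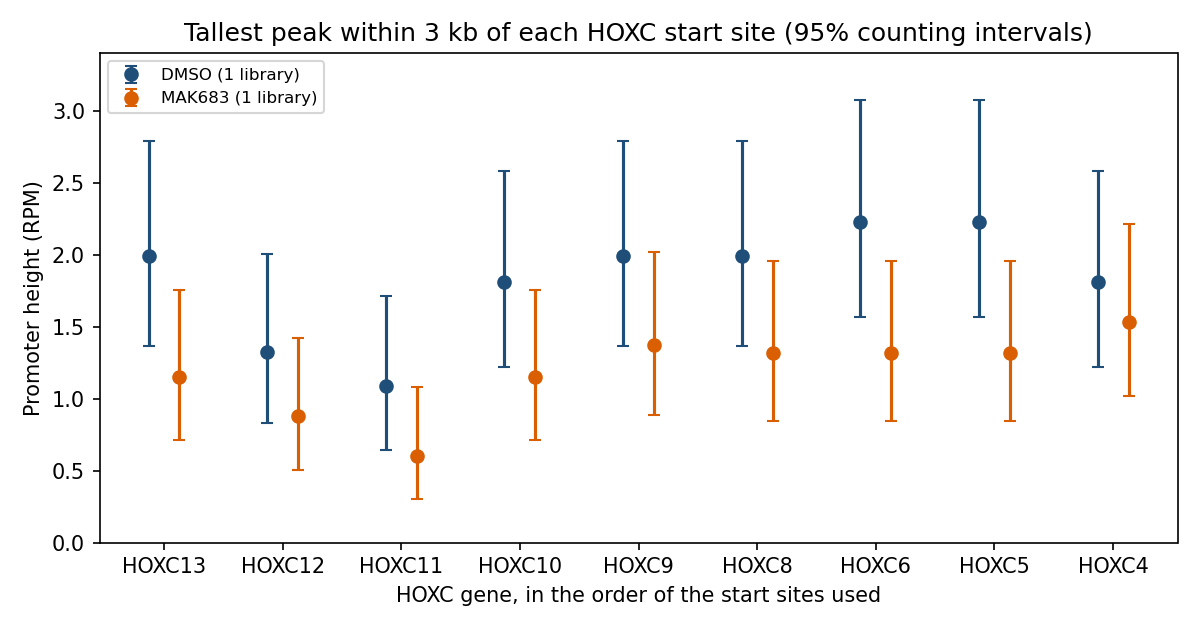
Height (RPM, y axis) of the tallest peak within 3 kb of the TSS of each HOXC gene (x axis), for the DMSO library (blue) and the MAK683 library (orange). Bars are 95% counting intervals. All 9 orange points lie below the blue ones at this scaling (HOXC4 is 0.18 above the median log2 change of all promoters), the intervals of each pair overlap, and HOXC4 has the smallest gap.

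The posterior end of the cluster comes first in the genome and included the lowest promoters. HOXC13, a regulator of hair and nail keratin genes, has its TSS at chr12:54332615. Its tallest peak held 33 tags in DMSO (1.99 RPM, 1.37 to 2.79) and 21 in MAK683 (1.15 RPM, 0.712 to 1.76). The log2 change was −0.79, with an interval from −1.58 to just below 0. Both summits lay upstream of the TSS, at 162 and 131 bp, in an intron of the antisense gene HOXC13-AS. Over the body of the gene the libraries differed more. DMSO peaks covered 49.2% of HOXC13 and MAK683 peaks 10.7%. From 54333437 to 54341641 the MAK683 library listed no peak, and 8 DMSO peaks of 9 to 16 tags lay wholly within this stretch.

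HOXC12, the next posterior gene, had no peak within 1 kb of its TSS at 54348687 in either library. Its tallest peak lay in the gene and held 22 tags in DMSO (1.33 RPM, 0.831 to 2.01) and 16 in MAK683 (0.876 RPM, 0.501 to 1.42), a log2 change of −0.60 (−1.53 to 0.33). The MAK683 summit lay 3011 bp from the TSS, and when only summits within 3 kb counted HOXC12 went from 22 to 11 tags, −1.14 (−2.18 to −0.09). HOXC12 was the one member whose body was covered more in MAK683, 60.9% against 51.7%. HOXC11, which acts with its HOXA and HOXD paralogs in kidney development, had the lowest promoter of the cluster by the tallest peak within 3 kb. It held 18 tags in DMSO (1.08 RPM, 0.643 to 1.71) and 11 in MAK683 (0.602 RPM, 0.301 to 1.08), a log2 change of −0.85 (−1.93 to 0.23). The DMSO summit of this peak lay 4844 bp upstream, in a HOTAIR intron. When only summits within 3 kb counted, HOXC11 went from 14 to 11 tags, −0.49 (−1.63 to 0.65). A DMSO peak of 13 tags lay over the HOXC11 TSS at 54366910, and in MAK683 the nearest peak was 331 bp away. Its body was covered to 23.9% in DMSO and 5.89% in MAK683.

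HOXC10, a gene of the lumbar segments and hindlimb, had its tallest peak over the first exon in both libraries, with summits 491 and 506 bp past the TSS at 54378930. The peak held 30 tags in DMSO (1.81 RPM, 1.22 to 2.58) and 21 in MAK683 (1.15 RPM, 0.712 to 1.76), a log2 change of −0.65 (−1.46 to 0.15). Both libraries thus placed their summit at nearly the same base. Peaks covered 83.4% of the gene in DMSO and 56.2% in MAK683.

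HOXC9 and HOXC8 pattern the thoracic skeleton and motor neurons of the trunk, and the answer for both depended on how the promoter peak was chosen. The longest DMSO peak, chr12:54395154-54402521, reached into the 3 kb windows of both genes with a single summit of 33 tags between them (1.99 RPM, 1.37 to 2.79). In MAK683 the tallest peak near HOXC9 (TSS 54393945) held 25 tags (1.37 RPM, 0.886 to 2.02) and the tallest near HOXC8 (TSS 54402769) held 24 (1.31 RPM, 0.842 to 1.96). The log2 changes were −0.54 (−1.29 to 0.21) and −0.60 (−1.36 to 0.16). When only summits within the 3 kb counted, HOXC9 went from 13 tags in DMSO to 25 in MAK683, a log2 change of 0.81 (−0.16 to 1.77), the opposite direction. The MAK683 peak of 25 tags lay inside a DMSO peak of 32 tags whose summit was farther off. When only peaks within 1 kb counted, HOXC9 went from 32 to 13 tags, −1.44 (−2.37 to −0.51), and HOXC8 from 33 to 15, −1.28 (−2.16 to −0.40). These DMSO peaks of 32 and 33 tags reached into the 1 kb, but their summits lay 4614 and 3221 bp from the TSSs. The tallest MAK683 peaks that overlapped them, of 25 and 24 tags, lay wholly outside the 1 kb. Against those, the changes were −0.49 (−1.25 to 0.26) and −0.60 (−1.36 to 0.16). The HOXC8 TSS lay in a DMSO peak of 14 tags and in no MAK683 peak, and its body was covered to 55.9% and 7.48%. The HOXC9 TSS lay 12 bp outside the nearest DMSO peak and inside a MAK683 peak of 13 tags.

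HOXC6 and HOXC5, anterior trunk genes whose annotated transcripts overlap those of HOXC4, shared the peak upstream of HOXC5. It held 37 tags in DMSO (2.23 RPM, 1.57 to 3.07) and 24 in MAK683 (1.31 RPM, 0.842 to 1.96), a log2 change of −0.76 with an interval, −1.50 to −0.02, that lay below 0. Its summits in the libraries were 659 and 645 bp ahead of the HOXC5 TSS at 54426834, on the CG-poor sequence shown above. From the HOXC6 TSS used here (54422224) these summits lay nearly 4 kb away. Within 1 kb of that TSS the tallest HOXC6 peak held 17 tags in each library, 1.02 and 0.931 RPM. The shared value therefore describes HOXC5 more closely than HOXC6. The HOXC5 TSS lay in the DMSO peak but 68 bp outside the nearest MAK683 peak, and the body of HOXC5 was covered to 66.0% and 19.3%.

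HOXC4, the most anterior gene of the cluster, changed least by the tallest peak within 3 kb, although HOXC6 changed less within 1 kb (−0.14). Its tallest peak held 30 tags in DMSO (1.81 RPM, 1.22 to 2.58) and 28 in MAK683 (1.53 RPM, 1.02 to 2.22), a log2 change of −0.24 (−0.98 to 0.51). The DMSO summit lay 52 bp and the MAK683 summit 942 bp upstream of its TSS at 54447619. The levels in DMSO ran from 1.08 RPM at HOXC11 to 2.23 at HOXC6 and HOXC5, and no neighbours in that order differed beyond their intervals. In MAK683 they ran from 0.602 RPM at HOXC11 to 1.53 at HOXC4, and here too neighbours overlapped. HOXC promoters were of ordinary height for this line. In DMSO they stood between percentile 27.6 (HOXC11) and percentile 67.7 (HOXC6 and HOXC5) of protein-coding promoters with a peak, and in MAK683 between percentiles 12.3 (HOXC11) and 65.0 (HOXC4).

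Over all peaks of the span the direction was the same. These include the promoter peaks above, so the values are not separate from those of the promoters. Merging overlapping peaks of both libraries gave 66 HOXC regions, of which 33 had a peak in both, 29 in DMSO alone and 4 in MAK683 alone. The height of a region in a library is that of its tallest peak there, so the summits compared can lie apart. Over the genome 25.1% of regions were found in DMSO alone and 45.9% in MAK683 alone. In the cluster the DMSO-only regions thus outnumbered the MAK683-only ones, and in the genome it was the reverse. The excess was not particular to HOXC. DMSO-only and MAK683-only regions numbered 16 and 2 in HOXA, 22 and 11 in HOXB, 26 and 3 in the 500 kb below the HOXC span and 56 and 27 in the 500 kb above it, while HOXD had 5 and 13. Of the 63 DMSO peaks, 34 (54.0%) were overlapped by a MAK683 peak, and of the 64 MAK683 peaks, 60 (93.8%) by a DMSO peak. Over the genome there were 49995 DMSO-only regions beside 114060 DMSO peaks, and 91532 MAK683-only regions beside 161184 MAK683 peaks. The part of DMSO peaks without a counterpart, 29 of 63, was thus near that of the genome. What differed was the small number of MAK683-only peaks. This number is tied to coverage. DMSO peaks covered 70.1% of the span, against a mean of 2.74% over genome windows of its length. A MAK683 peak lying anywhere in the span would thus mostly overlap a DMSO peak.

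Each of the 33 shared regions was lower in MAK683, against 76.2% of the 57983 shared regions of the genome. Without depth scaling, 29 had fewer tags in MAK683 and 4 had equal tags. The median log2 change was −0.67, and the values ran from −1.52 to −0.14. The median of all shared regions was −0.33, and 28 of the 33 lay below it. In 10 of the 33 the region's own interval lay below 0, but most of these intervals included the median of all shared regions. No share over all shared regions is given for this count. A fall of at least 2-fold was seen in 6 of the 33, or 18.2%, against 5.54% of all shared regions. Among 41687 shared regions of like mean height, 6.86% fell that far, and the median was −0.36. Among 28577 shared regions of at least 1 kb the median was −0.43.

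**Figure D3:**
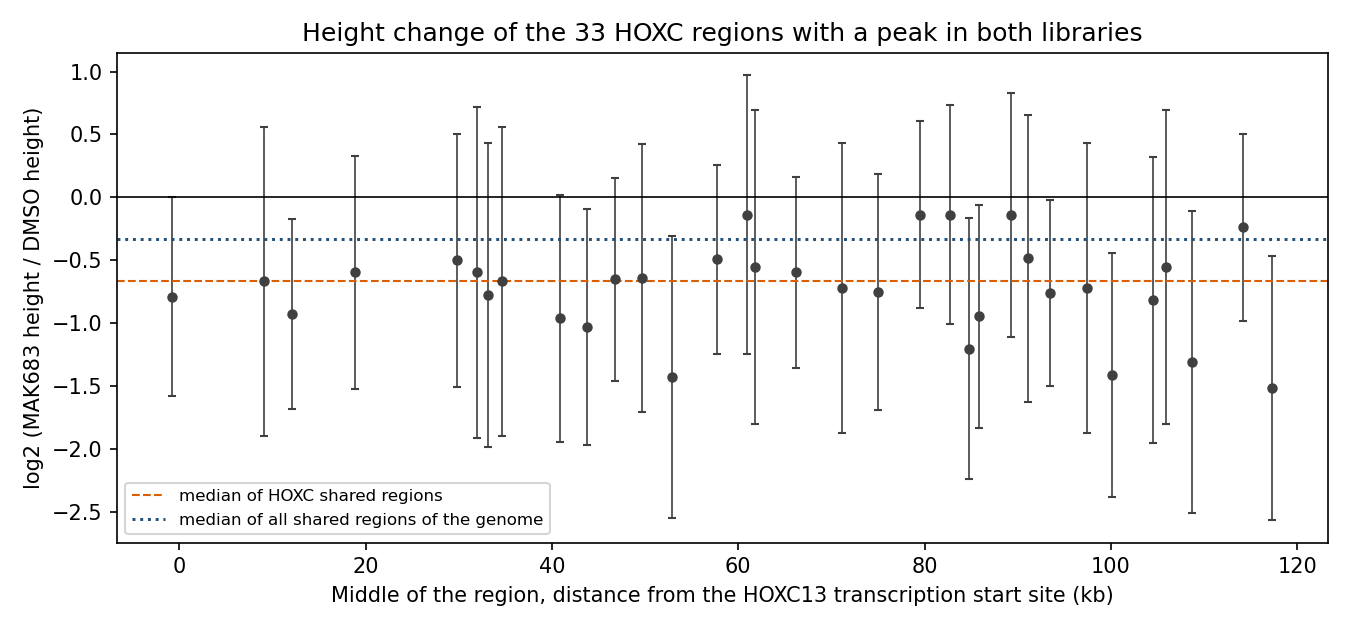
Log2 ratio of MAK683 over DMSO height (y axis) of the 33 HOXC regions with a peak in both libraries, by distance of the middle of the region from the HOXC13 TSS (kb, x axis). Bars are 95% Poisson counting intervals, and dashed and dotted lines are the medians of these regions (−0.67) and of all shared regions (−0.33). All points lie below 0 at this scaling, between −1.52 and −0.14 (4 had equal tags before scaling), and 10 have intervals wholly below 0. Most of these 10 intervals include the dotted line.

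The largest falls lay in the stretch from HOXC10 to HOXC4. The region at chr12:54449240-54450687, across the 3′ end of HOXC4, went from 26 tags in DMSO (1.57 RPM) to 10 in MAK683 (0.547 RPM), −1.52 (−2.57 to −0.46). The region at chr12:54384493-54386566, in an intron of HOXC6 beside HOXC10, went from 22 tags (1.33 RPM) to 9 (0.493 RPM), −1.43 (−2.55 to −0.31). It contains MIR196A2, a microRNA gene known for targeting HOXC8. The region at chr12:54431192-54434368, in a HOXC4 intron and shown above, went from 29 tags (1.75 RPM) to 12 (0.657 RPM), −1.41 (−2.38 to −0.44). By the tallest peak within 3 kb, no member's promoter fell as far. Within 1 kb HOXC9 did (−1.44), but that value compares unlike peaks of the libraries.

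No shared region rose. The smallest differences were in 4 regions with equal tags in both libraries, each −0.14 after scaling. They were chr12:54409764-54414579 with 29 tags, chr12:54414581-54416191 with 21, chr12:54420829-54422937 with 17 and chr12:54393089-54393993 with 13. The first of them carried the tallest HOXC peak of the MAK683 library, 29 tags (1.59 RPM, 1.06 to 2.28) at the CG-rich summit printed above, within introns of HOXC4 and HOXC6. The first 3 lay along the long introns of HOXC4 and HOXC6, but the regions between them, at 54416839 and 54417995, went from 23 to 11 tags and from 28 to 16.

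The tallest HOXC peak of the DMSO library lay at no gene start. It held 38 tags (2.29 RPM, 1.62 to 3.14) between HOXC13 and HOXC12, with its summit 5755 bp upstream of the HOXC12 TSS. In MAK683 the tallest peak of the same region held 22 tags (1.20 RPM), −0.93 (−1.68 to −0.17). Its summit lay elsewhere in the region, 4526 bp upstream of that TSS. Peaks near gene starts were no taller than the others. The median was 14 tags for the 27 DMSO peaks with a summit within 3 kb of a member TSS and 14.5 for those farther away, and 11 in both classes in MAK683.

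The DMSO peaks with no MAK683 counterpart were short and low. They held 7 to 18 tags, with a median of 11, and their median length was 312 bp, against 21.5 tags and 1597.5 bp for the DMSO peaks that a MAK683 peak overlapped. The tallest, 18 tags (1.08 RPM), lay in an intron of HOXC8 at chr12:54404529-54404922. The next, with 16 tags, lay in the 3′ part of HOXC13 at chr12:54339079-54339555, and a pair with 15 tags lay in a HOXC13 intron and at HOXC11. The 4 MAK683 peaks without a DMSO counterpart held 7 to 9 tags, near the lowest number listed, and the tallest, a pair with 9 tags, lay in introns of HOXC12 and HOXC6.

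The noncoding genes of the cluster behaved as the members did, and share their peaks. All 9 had a promoter peak in both libraries, against 70.9% of protein-coding genes. All were lower in MAK683, against 78.4% of protein-coding promoters with a peak, though 2 had equal tags before scaling. Their median log2 change was −0.54. HOTAIR, the antisense RNA between HOXC12 and HOXC11 that is known for its association with PRC2, had the largest change, from 15 to 9 tags. The log2 change was −0.88 (−2.07 to 0.32). No MAK683 peak overlapped its DMSO peak of 15 tags, so this value compares different sites. The genes ENSG00000273046 and ENSG00000260597 changed least, with 29 tags in each library. The 3′ stretch of HOTAIR lay in a 7.89 kb stretch without a MAK683 peak, and 4 DMSO peaks of 7 to 10 tags lay within it.

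The other HOX clusters were measured in the same way. HOXA was most like HOXC: it was covered to 60.7% in DMSO and 42.0% in MAK683, all 26 of its shared regions were lower, and the median was −0.62. HOXB was covered to 22.2% and 14.8%, 26 of 29 shared regions were lower and the median was −0.72. HOXD differed in direction of coverage, with 17.7% in DMSO and 21.9% in MAK683, and 10 of its 14 shared regions were lower, with a median of −0.39. Without depth scaling, fewer tags in MAK683 were found in 25 of 26 HOXA, 22 of 29 HOXB and 8 of 14 HOXD regions. Relative to the median of all shared regions, the cluster medians were −0.34 for HOXC, −0.29 for HOXA, −0.39 for HOXB and −0.06 for HOXD. No test of these differences was possible with 1 library per group. By promoter, the medians were −0.61 over 11 HOXA genes, −0.78 over 10 HOXB genes and −0.00 over the 7 HOXD genes with a peak. HOXA5, HOXB1 and HOXD10 had no MAK683 peak and entered these medians with the floor height. HOXD13, the HOXD paralog of HOXC13, had the highest HOXD value, from 13 to 28 tags, 0.97 (0.02 to 1.92), whereas HOXC13 went from 33 to 21.

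The sequence around the HOXC cluster was lower in MAK683 too, more so below the span than above it. In the 500 kb below the span, coverage was 15.3% in DMSO and 10.8% in MAK683, 37 of 39 shared regions were lower and the median was −0.61. In the 500 kb above it, coverage was 25.8% and 18.0%, 61 of 67 were lower and the median was −0.43. Over the genome 76.2% of shared regions were lower. Relative to the median of all shared regions, the flank medians were −0.28 below the span and −0.10 above it. Relative to the shared regions of both flanks, the median of the HOXC regions was −0.16. Of 20 protein-coding genes with a TSS in the flanks, 17 were lower and 2 higher, with a median of −0.61. Of all protein-coding promoters with a peak, 78.4% were lower. The 2 higher genes were NCKAP1L and PDE1B, which had a peak in MAK683 alone, of 7 and 10 tags. They entered with the floor height in DMSO. PRR13 had the largest fall, −1.26. The part of this regional difference in the HOXC values was not tested.

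**Figure D4:**
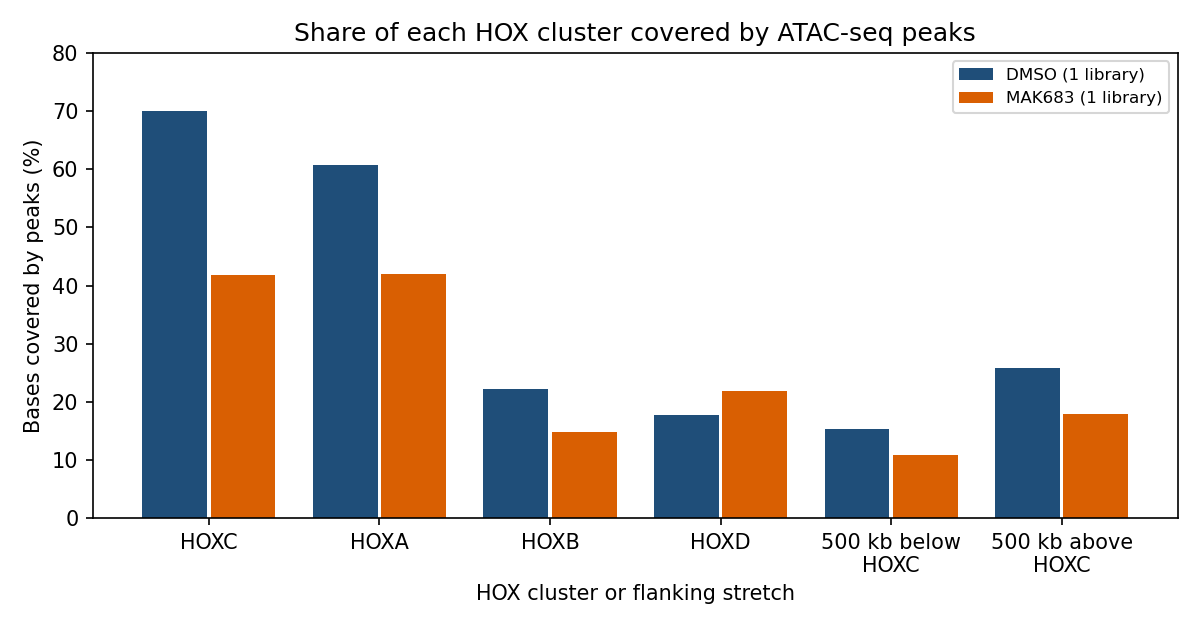
Percent of bases covered by ATAC-seq peaks (y axis) in the HOXC span, the other HOX clusters and the 500 kb on each side of HOXC (x axis), for the DMSO library (blue) and the MAK683 library (orange). HOXC goes from 70.1% to 41.8% and HOXA from 60.7% to 42.0%, both flanks of HOXC are lower in MAK683, and HOXD goes from 17.7% to 21.9%.

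The genes of the HOX partners were read beside the cluster. All 9 PBX, MEIS and PKNOX genes had a promoter peak in both libraries, and 8 were lower in MAK683, with a median log2 change of −0.39. Only 7 had fewer tags before scaling, and 3 were below the median of all promoters. PBX3 fell the most, from 51 to 34 tags, −0.72. MEIS1, whose protein binds DNA with HOX and PBX proteins, was the exception, from 19 to 39 tags, 0.90 (0.11 to 1.69). The cofactors thus lay nearer to the median of all promoters, −0.42, than the 9 HOXC genes did.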

How the data were processed

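Each library was aligned by the authors to hg19 using Bowtie2 after trimming, as their methods state. Peaks were called per library, without pooling, with MACS2 2.1.1.20160309 per the file headers (their processing notes name 2.1.0 and 2.2.7.1) without a control or local background, at a q-value cutoff of 0.05, with tags shifted by 100 bp and extended to 200 bp. The deposited pileup signal is the unscaled number of tags over the summit. The deposited fold enrichment is a ratio to 1 genome-wide background, and the deposited −log10 q-value and −log10 p-value depend on depth. Regional background was therefore not corrected, and reads were not collapsed by molecular identifiers.

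From these, height per 1000000 tags after filtering, covered bases and regions merged at an overlap of at least 1 bp were computed in Python 3.11.15 with pandas 2.3.3 and scipy 1.17.1. TSSs are those of Ensembl canonical transcripts in GENCODE 44 lifted to GRCh37. Intervals and overlaps were checked on simulated data. All 9 members were named in full; other genes, peaks and motifs were named by fixed lists or as the highest and lowest values. The members and lists were chosen with earlier results of these data known. Alternatives were stricter q-values, equal peak numbers, other windows and TSSs, other scalings and centring. With 1 library per group no p-value was computed and no replicate could be left out. A marker gene and a summit sequence of the lists are not reported here.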

Additional observations from a re-analysis of the deposited data

How the results depend on the processing

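The covered bases were lower in MAK683 under every alternative run. The ratio of 0.597 became 0.507 with a −log10 q-value of at least 5, 0.316 with at least 10 and 0.289 with only peaks of at least 1 RPM, the last added after seeing the data, and otherwise moved by under 10%. The ratio of peak numbers, 1.02, turned below 1 under the same 3 settings, to 0.667, 0.40 and 0.375, and with equal peak numbers genome-wide, to 0.905. No genome-wide ratios with these 3 cutoffs are given, so a part particular to HOXC cannot be read from them. Heights were lower in MAK683 at 76.2% of all shared regions, and peaks of at least 1 RPM were also fewer in the other HOX clusters and both flanks. The median change of shared regions stayed negative. It moved from −0.67 to −0.53 without depth scaling, −0.57 with fold enrichment, −0.34 relative to all shared regions and −0.16 relative to the 500 kb flanks, the last added after seeing the data. The promoter median stayed negative too, and moved from −0.65 to −0.49 with the summit inside the window, −0.51 without depth scaling and −0.23 relative to all promoters. Of 62 single-promoter values under the alternatives run for them, 61 were negative, and HOXC4 became 0.18 relative to all promoters. Most of these values rescale the same tag numbers or repeat the same peaks, so their sign was largely set beforehand. At the main scaling, 78.4% of all protein-coding promoters with a peak were lower. The summit choice, which turned HOXC9, was not among the alternatives run for single promoters. Promoter peaks were found for 8 or 9 members throughout.

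Depth limits these values: HOXC peaks hold 7 to 38 tags, so most single intervals include 0, and 1 library per group shows no spread between cultures.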
